A study of Mus musculus with 17 samples.

Results

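The Cdh1 and Cdh3 locus encodes the classical cadherins of the epidermis: E-cadherin from Cdh1 and P-cadherin from Cdh3. Its members are the peaks of 4 chromatin immunoprecipitation sequencing (ChIP-seq) lists that lie inside either gene, or outside any gene with one of the pair as the nearest protein-coding gene. They were chosen by the measured peaks themselves, so the number of peaks at the locus describes the choice and is not a finding. The rule found 15 of the 2948 peaks of the 4 lists, and all 15 came from the control H3K27ac list. The peaks were assigned by distance alone, so a peak given to a gene is not shown to act on it.

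ChIP-seq was carried out on crosslinked cell suspensions of mouse epidermis from females, with antibodies against UTX and against histone H3 acetylated at lysine 27 (H3K27ac), which marks promoters and enhancers in use. UTX is the histone demethylase encoded by Kdm6a. Utx-deleted mice (Cre+; Utx fl/fl) and control mice (Cre-; Utx fl/fl) both carried Kdm6a alleles flanked by loxP sites, and differed in the Cre recombinase, which was driven by Krt14, a keratin gene of basal keratinocytes. Cells of the epidermis outside that lineage are not targeted by such a Cre, and the labels give no age and no measure of how complete the deletion was. The labels hold 3 Utx-deleted and 2 control H3K27ac libraries, and 3 Utx-deleted and 3 control UTX libraries. The protocol in the labels gives 3 per group, so whether the control H3K27ac list, from which all locus peaks come, holds a further library is not known. Each list was called by the authors on the merged libraries of a group. A list therefore has no replicate value, no difference between genotypes could be tested, and read depth is unknown. The lists held 48 Utx-deleted and 2140 control H3K27ac peaks, and 213 Utx-deleted and 547 control UTX peaks.

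Classical cadherins are calcium-dependent adhesion molecules whose outer domains bind the same cadherin on the next cell. Inside the cell their tails bind p120-catenin and either β-catenin or plakoglobin, which connect through α-catenin to actin, and the whole assembly is the adherens junction. In skin, E-cadherin is found through the living layers of the epidermis, whereas P-cadherin is strongest in basal cells and in the hair follicle. Melanocytes, Merkel cells and Langerhans cells, which reside in the epidermis, also carry E-cadherin. Both genes are read toward higher coordinates, so the lower end of each is its start. A long intron of mouse Cdh1 is known to hold elements that Cdh1 expression in epithelia needs.

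On GRCm38, Cdh3 (gene ID 12560) spans chromosome 8 from 106510852 to 106556911 and Cdh1 (gene ID 12550) from 106603350 to 106670247. Cdh3 is 46.1 kb long, Cdh1 is 66.9 kb long, and 46.4 kb lie between them. The RefSeq gene table used here gives gene spans but no exons, so peaks inside Cdh1 are placed by their distance from its lower end and not by exon or intron.

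H3K27ac in control epidermis lay along the first part of Cdh1, with 1 peak near Cdh3. Cdh1 held 14 control H3K27ac peaks, all of them inside the gene, covering 5496 bp or 8.22% of its length. Cdh3 had 0 peaks inside the gene and 1 outside it. Of the 14 Cdh1 peaks, 13 lay in a stretch of 20.3 kb that began 512 bp after the lower end and ended 20.8 kb after it. That end stood at 31.1% of the gene's length. Peaks covered 25.7% of this stretch.

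The peaks at the start of Cdh1 formed a run of 4 with gaps under 1 kb. The run spanned 2802 bp, from 106603862 to 106606663. Its peaks were 203, 258, 376 and 655 bp wide in order from the lower end of the gene, and the peak farthest into the gene, from 106606009 to 106606663, was the widest of the locus. By width it ranked 69 of the 2140 control H3K27ac peaks, where rank 1 is the widest. Only 1 of the 15 locus peaks was closer than 1 kb to the end of its gene (6.67%), and over the whole list this share was 35.6%. The count depends on the distance: within 500 bp it was 0 of the 15, beside 25.2% of the list, and within 3 kb it was 4 of the 15 (26.7%), beside 49.4%. Of the 15, 14 lay in 1 gene chosen by its peaks, and only a few of them could lie near its ends. The contrast with the list follows in part from that choice and was not tested.

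Further into Cdh1 came 4 more runs with gaps of at most 1 kb. A pair of peaks (564 and 256 bp) lay between 6.25 and 7.61 kb from the lower end. A run of 3 (357, 349 and 562 bp) began 11962 bp from the lower end and spanned 2068 bp. It was followed by a pair (471 and 228 bp) between 15.7 and 16.9 kb and a pair (346 and 587 bp) between 19.4 and 20.8 kb. Each of the 5 multi-peak runs held at least 1 peak wider than the 369 bp that marks the upper quartile of the other control H3K27ac peaks.

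After these runs the next 22.9 kb held no peak of any of the 4 lists. A single peak of 284 bp then lay from 106647018 to 106647301, 43.7 kb from the lower end, and the last 22.9 kb of Cdh1 held none. The 12 gaps within the 20.3 kb stretch ranged from 143 to 4348 bp with a median of 516 bp, and 8 of them were under 1 kb. Over the 15 locus peaks the median gap to the nearest other peak was 483 bp, against 8711 bp over the list. The locus was chosen with its number of peaks in view, so these short gaps describe that choice and are not a finding.

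**Figure D1:**
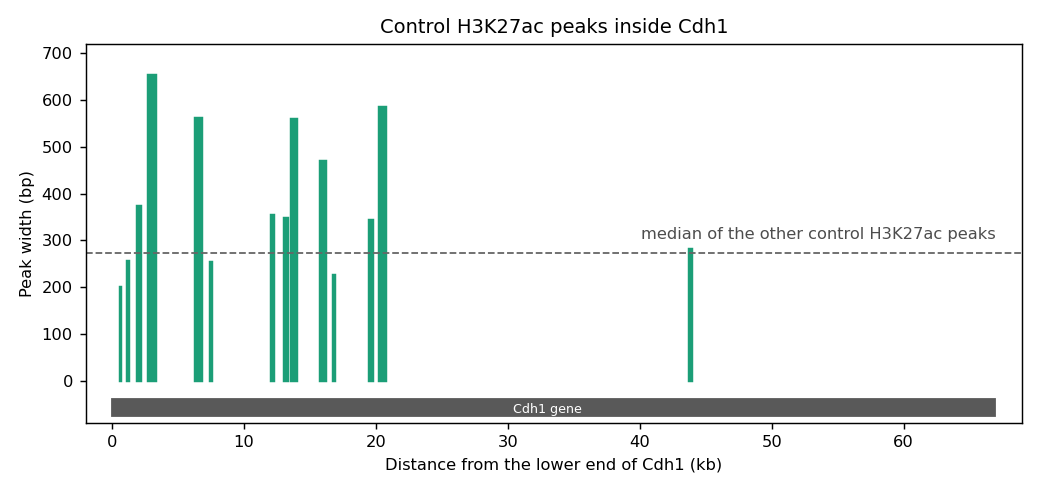
Control H3K27ac peaks inside Cdh1, drawn to scale along the gene (x axis, kb from its lower end) with the height of each bar giving the peak's width in bp (y axis). The 13 peaks of the first 20.8 kb and the single peak at 43.7 kb can be seen against the median width of the other control H3K27ac peaks (dashed line, 273 bp).

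The Cdh3 peak was of middle width for its list and lay between the genes. It ran from 106571702 to 106571968 and was 267 bp wide, rank 1129 of 2140 by width. It lay 14791 bp above the upper end of Cdh3 and 31382 bp below the lower end of Cdh1, so it belongs to Cdh3 only by being nearer to it. The pseudogene Gm10073 lay 996 bp from it, nearer than either cadherin gene. The lncRNA genes 1110028F18Rik and Gm39239, which also lie between Cdh3 and Cdh1, overlapped 0 locus peaks.

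The widths were not used to choose the peaks, but the number of peaks was in view. Whether width goes with that number was not tested. The 15 locus peaks ranged from 203 to 655 bp with a median of 349 bp. The other 2125 control H3K27ac peaks had a median of 273 bp, with quartiles of 225 and 369 bp and a maximum of 1798 bp. Of the locus peaks 10 were wider than that median, and 6 were wider than the upper quartile. At 500 bp or more stood 4 of the 15 (26.7%), against 191 of the other 2125 (8.99%). These are descriptions without a test, because neighbouring peaks of 1 gene are not independent and a narrow-peak caller can split a broad acetylated domain into several.

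After Utx deletion no peak of either antibody was listed at the locus. Cdh1 and Cdh3 had 0 Utx-deleted H3K27ac peaks, against 14 and 1 control H3K27ac peaks. The Utx-deleted list is short: 28 of 21883 protein-coding genes (0.128%) had a peak in it, against 1341 (6.13%) in the control list. Chromosome 8 as a whole had 0 Utx-deleted H3K27ac peaks and 105 control ones, of which the locus held 14.3%. The locus made up 0.701% of the control list, and the same share of 48 peaks would be 0.336 peaks. The difference at the locus can therefore not be told apart from the shortness of the Utx-deleted list as a whole, and peak lists without heights do not show how much acetylation remained under the calling threshold.

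The UTX antibody gave 0 peaks at Cdh1 and Cdh3 in Utx-deleted epidermis and 0 in control epidermis. The Utx-deleted UTX list gave a peak to 113 genes (0.516%) and the control UTX list to 533 (2.44%), so a pair of genes without a UTX peak is the usual case. None of the 15 locus peaks had a peak of the other 3 lists within 1 kb, which follows from the 0 peaks of those lists at the locus. The same share over all control H3K27ac peaks was not computed, so this is not shown to be particular to the locus. The nearest control UTX peak lay inside Nfatc3, a gene of calcium-regulated transcription, from 106112022 to 106112378 and 459 kb below the outermost locus peak. On the other side the nearest was 3059956 bp away. The nearest Utx-deleted UTX peak on chromosome 8 lay 5218213 bp above the locus.

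**Figure D2:**
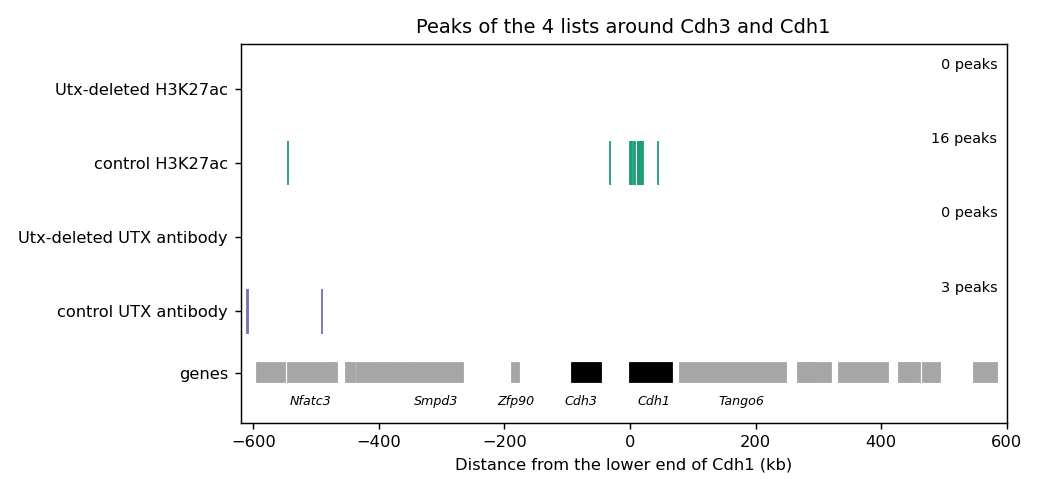
Peaks of each list (rows, 1 vertical line per peak at its centre) and protein-coding genes (bottom row, cadherin genes in black) by distance from the lower end of Cdh1 (x axis, kb). The stretch holds 0 Utx-deleted and 16 control H3K27ac peaks, and 0 Utx-deleted and 3 control UTX peaks, and 15 of the 16 belong to the locus.

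The genes next to the locus carried few peaks, which is also usual for genes as a whole. Of the 23 other protein-coding genes within 500 kb of the locus, 1 had a peak in any list, and over all protein-coding genes the share with a peak in any list was 8.54%, so a count of 1 is near the background. The gene was Nfatc3, with 1 control H3K27ac and 1 control UTX peak. Zfp90, the zinc finger gene 83.9 kb below Cdh3, and Tango6, which lies 12.8 kb above Cdh1, had 0 peaks in all 4 lists. The same held for Esrp2, an epithelial splicing regulator, Smpd3, a neutral sphingomyelinase, and Has3, a hyaluronan synthase. The next control H3K27ac peak below the locus was that of Nfatc3, 512336 bp away, from 106059124 to 106059365. Above the locus it was a peak shared by the overlapping spans of Sf3b3 and Cog4, 4199139 bp away. No peak near the border of the rule therefore fell just outside it.

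In number of control H3K27ac peaks Cdh1 stood near the top of the list and Cdh3 at the bottom, which describes the values the locus was chosen on. Of the 21883 genes, 3 (0.0137%) had at least 14 peaks: Gata3 with 19, Cdh1 with 14 and Krt78 with 14. Of the 1341 genes with a peak, 929 (69.3%) had 1, as Cdh3 did. Counted inside gene spans, no gene had more peaks than Cdh1, and Krt78 had as many. Gata3, a transcription factor gene of epidermal and hair follicle differentiation, had 6 of its peaks inside its span. By covered length Cdh1 (5496 bp) ranked 2, after Gata3 (6208 bp). Among the 24 genes with at least 5 peaks inside, Cdh1 ranked 6 by peaks per length, with 2.09 per 10 kb. In windows of 100 kb the fullest on any chromosome was that of Cdh1 and Cdh3 with 15 peaks, followed by that of Krt78 with 14 and that of Tnfaip3 with 12. In windows of 200 kb the locus ranked 2, level with 2 other windows of 15 peaks. In windows of 50 kb it ranked 1, level with 1 other window of 14 peaks.

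**Figure D3:**
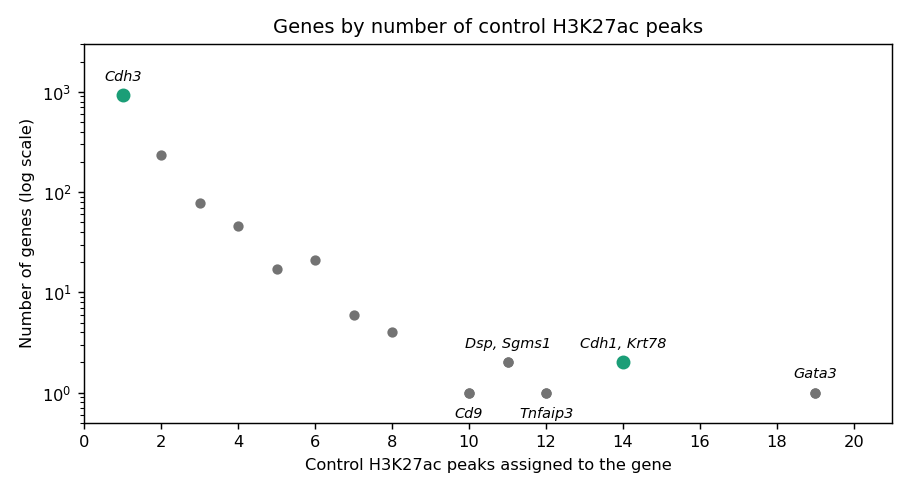
Number of genes (y axis, log scale) with each number of assigned control H3K27ac peaks (x axis). Cdh3 is among the 929 genes with 1 peak, and Cdh1 and Krt78 have 14, below Gata3 with 19.

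The genes most like Cdh1 were taken by their numbers of peaks in the 4 lists, then by covered length. Krt78, a type II keratin gene, was the only other gene with the same 4 numbers (0 Utx-deleted and 14 control H3K27ac peaks, 0 Utx-deleted and 0 control UTX peaks), and its peaks covered 5080 bp. Next came Tnfaip3, an inhibitor of NF-kB signalling, with 12 control H3K27ac peaks, and then Sgms1, a sphingomyelin synthase gene, with 11. Dsp, which encodes the desmosome protein desmoplakin, had 11 and the tetraspanin gene Cd9 had 10. All peaks of Krt78 (14) and of Sgms1 (11) lay inside the gene, as did those of Cdh1. Of the other genes, Tnfaip3 had 1 of its peaks inside, Dsp had 5 and Cd9 had 8. The 4 numbers of Cdh3 were shared by 898 other genes, of which 7 also had the same covered length of 267 bp (Ank3, Clec2i, Gga3, Lpcat2, Mrps7, Mus81 and Ttc26).

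Of 23 cadherin genes, 2 had a control H3K27ac peak (8.70%), beside 6.13% of all protein-coding genes, and these were Cdh1 and Cdh3, which the choice of the locus fixed. With peaks within 10 kb of a gene only, 1 of the 23 had one (Cdh1), beside 5.56% of all genes. Cdh2, which encodes N-cadherin, Cdh5 of endothelium and Cdh11 of mesenchyme were among the 21 with none, a count near the background. In the control UTX list 5 of the 23 had a peak (21.7%), beside 2.44% of all genes. Within 10 kb 1 of the 23 had one, beside 1.53% of all genes. It was a peak of 202 bp inside Cdh13, the gene of T-cadherin, on chromosome 8 from 118443626 to 118443827. The others were the nearest peaks to Cdh19 (213412 bp away), Cdh26 (453506 bp), Cdh18 (701176 bp) and Cdh20 (1152246 bp). The cadherin genes had 0 peaks in either Utx-deleted list, where 0.128% (H3K27ac) and 0.516% (UTX) of all genes have one.

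Among catenins and other adherens junction partners, 6 of 24 genes had a control H3K27ac peak (25%), beside 6.13% of protein-coding genes. Jup, which encodes plakoglobin, had 7 peaks covering 2854 bp on chromosome 11 between 100388582 and 100402706, and 5 of them lay inside the gene. Actn4, an actin cross-linking α-actinin, had 6 covering 2386 bp. Ctnnd1, the gene of p120-catenin, had 3 covering 973 bp, all inside the gene. Nectin1, an adhesion molecule of the immunoglobulin family, had 2, the wider of 791 bp. Afdn, whose product afadin ties nectins to actin, and the scaffold gene Iqgap1 had 2 each, none wider than 281 bp. Genes of the core junction were also among the 18 without a peak: Ctnnb1 (β-catenin), Ctnna1 (α-catenin) and Vcl (vinculin). The UTX antibody gave 1 control peak inside Actn1 and 1 inside Actn4, where it lay 4181 bp from the nearest H3K27ac peak. These were 2 of the 24 genes (8.33%), beside 2.44% of all genes. In both Utx-deleted lists 0 of the 24 had a peak. That is the usual count where 0.128% (H3K27ac) and 0.516% (UTX) of all genes have one.

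Regulators of cadherin genes were counted in a list of repressors and a list of epithelial factors, and the difference between the lists was not tested. Of 10 repressors, among them Snai1, Snai2, Zeb1 and Twist1, 0 had a control H3K27ac peak, which is the usual count for so short a list where 6.13% of all genes have one. In the control UTX list 1 of the 10 was assigned a peak (Zeb2, 1842415 bp away), beside 2.44% of all genes. Of 17 epithelial transcription factors that act on cadherin genes, 6 had a control H3K27ac peak (35.3%, beside the same 6.13%). Grhl3, a grainyhead-like factor of the skin barrier, had 6 and its relative Grhl1 had 3. Tfap2a, an AP-2 factor of epidermal differentiation, had 5 peaks inside the gene. Klf4, a factor of barrier formation, had 2, the nearest 717 bp outside. The 2 spanned 589966 bp, so the other lay far from the gene. The ETS factor gene Ehf had 1. Gata3 completed the 6. Trp63, Ovol1 and Grhl2 had none. The lists were small and were drawn up with earlier results of these data known, so the counts are descriptions.

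Genes of cadherin turnover and of the tight junction were set against the same 6.13%. Of 12 genes of cadherin shedding and transport 2 had a control H3K27ac peak (16.7%). Arf6, a small GTPase of membrane recycling, had 5, of which 2 lay inside the gene, and the 5 spanned 77280 bp. Rab5a, an early endosome GTPase, had 1, which lay 381 bp outside the gene. Adam10, the protease that sheds E-cadherin, had none. Of 16 tight junction genes found in the annotation 3 had one (18.8%). Among them the claudin gene Cldn1 had 4 within 3653 bp and F11r (JAM-A) had 2. In the control UTX list 2 of the 16 were assigned a peak (12.5%), beside 2.44% of all genes. F11r was among them, with 1 peak 2155 bp outside the gene and 28.3 kb from its nearest H3K27ac peak.

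The tissue label was set against defining genes. Of 15 keratinocyte genes, 5 had a control H3K27ac peak (33.3%, beside 6.13% of all genes). Dsp had 11 (5 inside the gene), Perp 6 (1 inside), Sfn 5 (3 inside), Krt10 3 (1 inside) and Col17a1 2 (1 inside). Krt5, Krt14 and Trp63 had none. Control H3K27ac peaks were assigned to 0 of 9 immune, 0 of 8 melanocyte, 0 of 7 Merkel cell and 0 of 8 fibroblast genes, and to 2 of 7 endothelial genes (28.6%, with 6 at Pecam1 and 1 at Vwf). At 6.13% of all genes, 0 is the usual count for lists of 7 to 9 genes, so these zeros say nothing about whether such cells were present. In the Utx-deleted H3K27ac list these 6 sets had 0 genes each, the usual count where 0.128% of all genes have a peak. The control UTX list gave a peak to 1 of 8 melanocyte genes (Tyrp1) and 1 of 7 endothelial genes (Vwf), beside 2.44% of all genes. Vwf also had 1 peak in the Utx-deleted UTX list, where 0.516% of all genes have one. That peak (125617868 to 125618224 on chromosome 6) lay at the site of the control UTX peak (125617863 to 125618232). No other gene of these sets had a UTX peak. The control H3K27ac peak at Vwf lay in the same 100 kb window as peaks of its neighbour Cd9. A list of peaks from a mixed suspension does not show which cells carry the mark, and fewer acetylated cells cannot be told apart from less acetylation per cell.

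**Figure D4:**
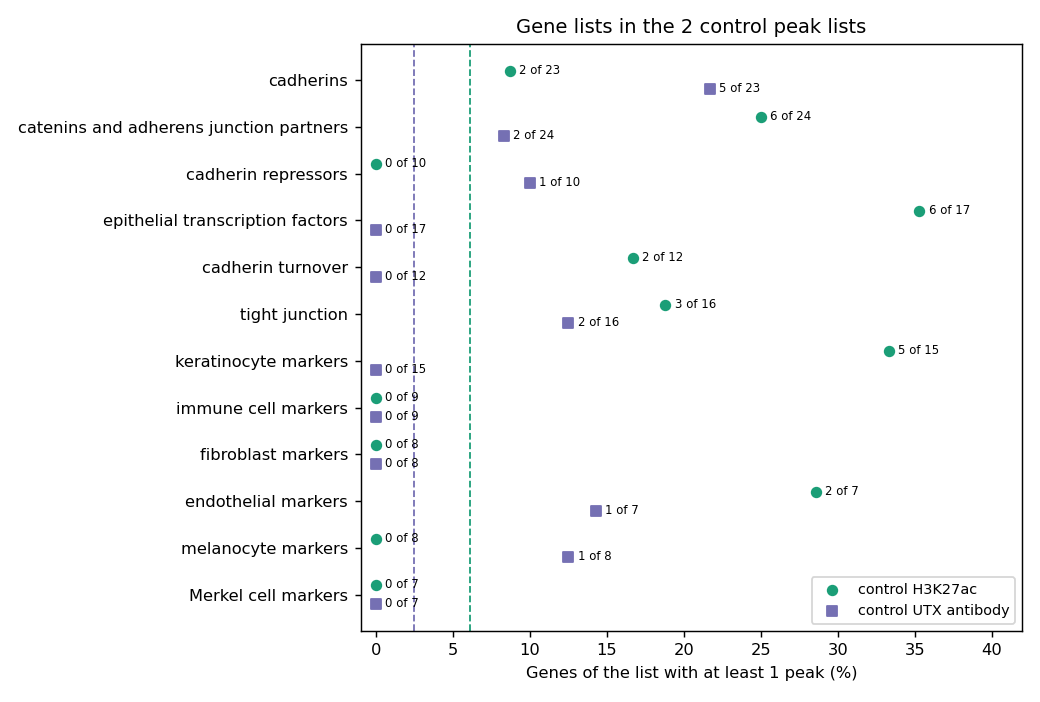
Share of the genes of each list with at least 1 peak (x axis, %), for the control H3K27ac list (circles) and the control UTX list (squares), with the number of genes beside each point. Dashed lines mark the share over all protein-coding genes, 6.13% for H3K27ac and 2.44% for UTX.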

How the data were processed

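The deposited data are 4 peak lists whose values are start and end positions in bp, and the authors called them with MACS2 on merged samples, per the file headers. Bowtie2, bedtools, deepTools and FastQC are named without role or version, per the submitters' processing notes. The lists hold no height, fold or q, so no stricter threshold could be set. The notes name GRCm38 and GRCm39. GRCm38 was used. On it the end of the assigned gene was at most 1 kb away for 35.6% of placed control H3K27ac peaks. After a shift of 10 kb down or up the share was 9.12% and 9.82%. Gene spans of GRCm39 were not tried, so the check did not compare the named builds.

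Positions are 1-based. Gene spans of 21883 protein-coding genes came from RefSeq (GRCm38.p6). A peak counted for every gene it overlapped by at least 1 bp, otherwise for the nearest gene. Pals1 and Trdc, members of the 12 gene lists, were not matched by symbol. The locus, the lists and the rule for named genes (neighbours up to the first with a peak, genes with the most similar peak numbers, and up to 6 list members with a peak) were chosen with earlier results of these data known. Genes named as having no peak were added after their values were seen. Assignment and windows were tested on simulated peaks. Input libraries were not analysed here. Python 3.11.15, numpy 2.4.6, pandas 2.3.3 and matplotlib 3.10.9 were used. A list member that meets this rule is not reported here.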

Additional observations from a re-analysis of the deposited data

How the results depend on the processing

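Of 70 alternative values over 23 results, 60 stayed within 1.5 times the reported number, 34 of them 0 that stayed 0. With peaks within 1 kb merged, the locus had 7 regions and Cdh1 had 6, by construction. The Cdh3 peak was lost (0) within 10 kb of the gene, with all annotated genes, where it goes to Gm10073, and among the wider peaks only, so that 1 cadherin gene had a peak within 10 kb and 1 among the wider peaks. Locus peaks near a gene end numbered 0 within 500 bp and 4 within 3 kb. The locus ranked 2 in windows of 200 kb, level with 2 other windows. Stitching and assignment to the nearest gene end were chosen after seeing the data: peaks with gaps of up to 5 kb formed 1 region of 13 peaks over 20277 bp in Cdh1, rank 2 by number and 1 by span, and with gaps of up to 10 kb the same region ranked 2 and 4, whereas with gaps of up to 1 kb the largest locus region held 4 peaks over 2802 bp and ranked 14 by number and 17 by span. Assignment to the nearest gene start was not run, since the annotation gives no strand. No paired analysis was possible because the libraries of a group were merged before peak calling, and for the same reason no library could be left out. Read depth, and so the depth behind the difference in list length, is unknown.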
